A study of Drosophila melanogaster with 17 samples.

Results

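The genes chinmo, Imp, Syp, mamo, ab and bol, 6 in all, are described here by the 11 probe sets that carry their symbols, out of 13966 probe sets tested on the array. Imp, Syp and bol encode RNA-binding proteins, and chinmo, mamo and ab encode transcription factors. The members were taken by gene symbol alone, and each probe set is given separately. Of these genes, mamo had 4 probe sets, chinmo 3, bol 2 and Imp and Syp 1 each. The gene ab (abrupt) had 0 probe sets with its symbol and was not analysed here, so 5 of the 6 genes carry the results. The arrays measured messenger RNA in mushroom body neurons of Drosophila melanogaster at 3 times around puparium formation, namely -18 h (7 arrays, mid last-instar larvae), 0 h (7 arrays, white prepupae) and 5 h (3 arrays, pupae). All animals had the genotype yw;UAS-mCD8::GFP/+;;OK107-GAL4, in which OK107-GAL4 drives a membrane-bound GFP in the mushroom body. Cell bodies were cut out of frozen sections by laser, and each array carried the amplified RNA of 40 pooled captures of about 100 cell bodies each. The driver sits at ey and does not sort neuron types. It labels the mushroom body neurons present at each time, whatever their birth date, and some other cells. Fewer cells of a type and less RNA per cell cannot be told apart in such pools. The labels call the replicates biological without naming animals, and p-values measure the spread between these pools.

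Mushroom body neurons are born in sequence from a few stem cells, first the gamma neurons, then the alpha'/beta' neurons and last the alpha/beta neurons. The RNA-binding proteins Imp and Syp form opposing gradients in the dividing stem cells, with Imp high early and Syp high late, and together they set the amount of the transcription factor Chinmo. High Chinmo goes with gamma fate and lower Chinmo with alpha'/beta' fate, where Mamo acts, and Abrupt is a related BTB zinc-finger protein. The larval branches of gamma neuron axons are pruned after pupariation, and Boule, the product of bol, is known as a negative regulator of that pruning.

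Array medians lay between 4.32 and 4.43 log2, and arrays of 1 group correlated at 0.960 or more over probe sets, which are not independent replicates. The gene that holds the driver, ey, averaged 8.97 ± 0.315, 8.66 ± 0.229 and 8.75 ± 0.0604 log2 along the time course (SD, n = 7, 7 and 3). Another mushroom body factor, dac, stood near the array median at 4.52, 4.55 and 4.46. Some markers of other cells were bright too, with apolpp of fat body at 8.89, 9.33 and 9.58. The glial marker wrapper averaged 8.33, 7.56 and 8.32, while the glial Gs2 averaged 4.27, 3.73 and 3.65. The purity of the captures was not tested. In the first step (0 h against -18 h), 11.9% of all probe sets fell and 13.6% rose (limma adjusted p under 0.05). Of 12 measured mushroom body markers, 5 fell and 0 rose. The list mean was 6.64 ± 0.0766 for prepupae and 7.03 ± 0.155 log2 for larvae (SD, n = 7 each). The largest fall of the list was that of prt, from 8.54 to 5.96, which weighs on that mean, and the list's median change was -0.27. Of 13 measured neuroblast and cell cycle markers, 6 fell and 0 rose in that step. Their list mean spanned 4.88 to 5.14 log2 in larvae, 4.41 to 4.82 in prepupae and 4.55 to 4.63 in pupae. Of the neuroblast markers in that list, mira averaged 7.43, 6.75 and 6.71 log2 along the time course, pros 5.90, 5.38 and 5.38, dpn 4.81, 4.85 and 4.75 and wor 4.83, 4.67 and 4.49, all above the array medians, while grh, ase and insc averaged at most 3.04, below the lower quartile of every array. Over the whole span (5 h against -18 h), 1 mushroom body marker rose and 5 fell, and 0 neuroblast and cell cycle markers rose and 6 fell. Of all probe sets, 11.0% rose and 9.06% fell over that span. Of 11 measured glial markers, 2 rose and 3 fell in the first step and 3 rose and 1 fell over the whole span. Of 5 measured fat body markers, 1 rose (apolpp) and 2 fell (Lsp2 and Obp99b) in the first step, 2 rose and 0 fell over the whole span, and their list mean spanned 6.63 to 8.97 log2 in larvae, 6.01 to 7.74 in prepupae and 7.27 to 8.89 in pupae. Larval arrays 1, 4 and 6 held salivary gland or muscle transcripts over 1 log2 unit above the highest prepupal array. Larval array 7 had a muscle mean of 5.495, under that cut but above the highest prepupal mean of 4.547, and it was kept. Hybridisation spike-in controls divided the arrays at 9.10 log2 into a higher set (larval arrays 1, 2, 3 and 7, prepupal arrays 5, 6 and 7) and a lower set (all others). The changes below were recomputed without larval arrays 1, 4 and 6 and within each set.

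In the first step, 5 of the 11 probe sets passed limma's test (adjusted p under 0.05 over all probe sets), where 25.5% of all probe sets did. These 5 lay in 4 genes. Higher at 0 h were Syp and 2 probe sets of mamo, 3 in all, where the array's share of higher calls was 13.6%. Lower were chinmo and bol with 1 probe set each, where the array's share was 11.9%. For mamo 145040_at and bol 143637_at, 2 of the 11, the arrays of the groups did not overlap at all, as for 11.3% of all probe sets. In the second step (5 h against 0 h), 1 of the 11 passed, mamo 145040_at, which fell. On the array 3.77% of probe sets passed that step, 2.36% higher and 1.42% lower, and 8.49% had no overlap between the groups, among the members only mamo 145040_at. Over the whole span, Syp rose and bol 143637_at fell, 2 of 11 where 20.0% of probe sets passed, 11.0% higher and 9.06% lower. In that contrast 4 members had no overlap between the groups, Imp, Syp, mamo 145040_at and bol 143637_at, where 20.4% of all probe sets had none. These contrasts share arrays, so their calls are not independent of each other. By limma's F test over both steps 4 of the 11 differed, where 27.1% of all did. The median change of the 11 was -0.03 log2 in the first step, -0.06 in the second and -0.03 over the whole span, beside medians of -0.02, -0.04 and -0.07 for all probe sets.

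**Figure D1:**
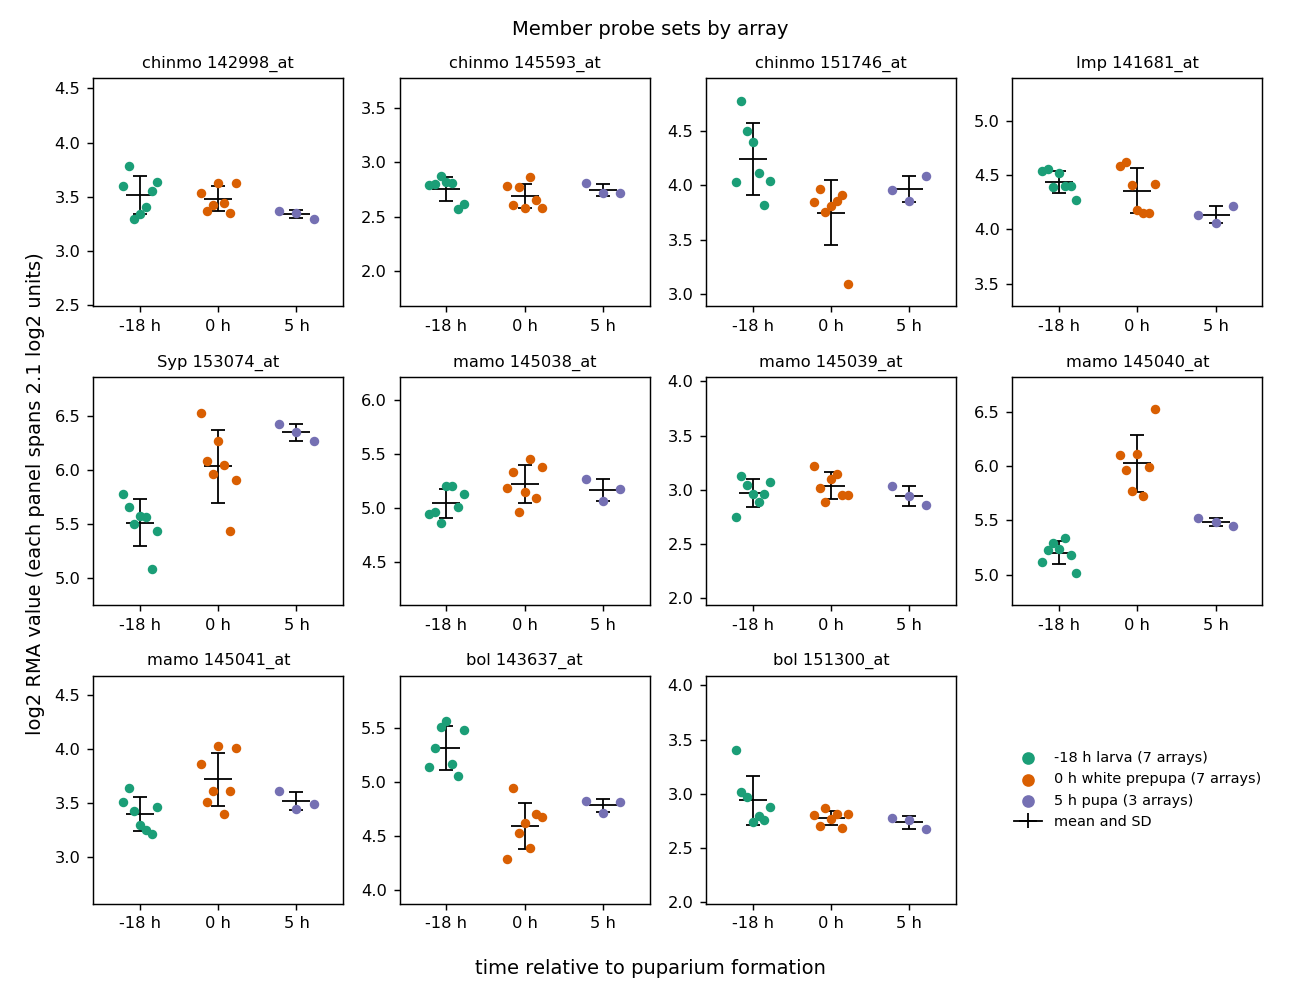
Log2 RMA value of each member probe set (vertical axis, 2.1 log2 units in each panel) against time relative to puparium formation, with 1 point per array, a horizontal mark for the group mean and bars for the SD. The rise of Syp, the high 0 h level of mamo 145040_at and the lower 0 h and 5 h levels of bol 143637_at stand out, and Imp at 5 h lies below the larval points. The points of the other probe sets overlap between all times.

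The arrays read RNA of pooled cell bodies, not the protein gradients of the stem cells. Imp encodes the fly relative of the vertebrate IGF2 mRNA-binding proteins, a protein high in young mushroom body stem cells. Its probe set 141681_at ran from 4.27 to 4.55 log2 at -18 h with a median of 4.40, and from 4.15 to 4.62 at 0 h with a median of 4.41. At 5 h it read 4.13, 4.06 and 4.21. The 0 h arrays took in the whole larval range, while all of the 5 h arrays lay below the lowest larval array. Imp at 5 h averaged 4.13 ± 0.0773 (SD, n = 3) against 4.44 ± 0.103 log2 at -18 h (SD, n = 7), a difference of -0.30 (SE 0.11, limma adjusted p = 0.0516) that did not pass. The change in the first step was -0.08, with a 95% interval of -0.25 to 0.09. That in the second step was -0.22 (interval -0.45 to 0.00, adjusted p = 0.359). The whole-span change did pass in 8 of 25 alternative fits, among them the one that allowed for the spike-in set (limma adjusted p = 0.0347) and those without larval array 7 or without 0 h array 1, 2, 5 or 6 (0.0398 to 0.0476). Over all of these fits its adjusted p ranged from 0.017 to 0.205. Imp lay above the array's own median of all probe sets in 9 of 17 arrays.

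Syp encodes Syncrip, the RNA-binding protein that opposes Imp and is high in old mushroom body stem cells. Probe set 153074_at ran from 5.08 to 5.78 log2 at -18 h with a median of 5.57, and from 5.43 to 6.52 at 0 h with a median of 6.05. The 5 h arrays read 6.43, 6.34 and 6.26. All of the 5 h arrays lay above all larval arrays, and 6 of the 7 arrays at 0 h did, the other one being 0 h array 6. Larval array 6 was likewise the lowest of its group. Syp rose 1.43-fold in the first step (log2 change 0.52, SE 0.13, limma adjusted p = 0.00377) and 1.78-fold over the whole span (0.83, SE 0.16, adjusted p = 0.000826). The second step was 0.31 (interval -0.03 to 0.66, adjusted p = 0.427) and did not pass. The whole-span change of Syp was among the larger ones of the array, since 5.84% of probe sets changed at least as much in either direction. The first-step change was 0.80 (limma adjusted p = 0.00221) within the lower spike-in set and 0.20 (0.443) within the higher one. The difference between the sets was not tested. The whole-span rise kept its call in all 25 alternative fits that gave it, with changes of 0.69 to 0.94.

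Side by side, the Syp and Imp probe sets had changes of opposite sign over the whole span. The 95% interval of the change was 0.49 to 1.17 for Syp and -0.53 to -0.08 for Imp. The Imp change did not pass the adjusted threshold.

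chinmo encodes the BTB zinc-finger transcription factor whose amount distinguishes early-born from later-born mushroom body neurons. Its brightest probe set, 151746_at, ran from 3.82 to 4.78 log2 at -18 h with a median of 4.11, and from 3.09 to 3.97 at 0 h with a median of 3.85. At 5 h it read 3.96, 3.85 and 4.09. The groups overlapped, with larval arrays 2, 3 and 4 highest and 0 h array 7 alone at the bottom. chinmo 151746_at fell 1.41-fold in the first step (log2 change -0.49, SE 0.14, limma adjusted p = 0.0117). Set by set of the spike-in signal, the change was -0.72 in the higher set (limma adjusted p = 0.0404) and -0.27 in the lower set (0.19), where the call was lost. Without 0 h array 7 the fall was at its smallest among the fits that leave out 1 array, -0.38, with the call kept. At 5 h the level lay between the other times, with a second-step change of 0.22 (interval -0.16 to 0.60) and a whole-span change of -0.27 (interval -0.65 to 0.10), and neither passed.

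The other chinmo probe sets were dim. 145593_at lay between 2.57 and 2.87 log2 in the 17 arrays, below the lower quartile of every array (3.33 to 3.47). 142998_at lay between 3.30 and 3.78, above that quartile in 14 arrays and above the array median in 0. Their first-step changes were -0.06 and -0.03, and none of their contrasts passed. The probe set 151746_at was itself above the array median in 3 of 17 arrays, and a log2 change of so dim a probe set can understate the change of the transcript.

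mamo encodes another BTB zinc-finger transcription factor, named for its role in the female germ line and known in the mushroom body for alpha'/beta' identity. RefSeq lists 8 older gene models now merged into it and 7 transcripts, and the files do not say which part each probe set reads. Its probe set 145040_at ran from 5.02 to 5.33 log2 at -18 h with a median of 5.23, and from 5.72 to 6.52 at 0 h with a median of 5.99. At 5 h it read 5.52, 5.48 and 5.45. The 3 times did not overlap at all, with every 0 h array above every 5 h array and every 5 h array above every larval array. It rose 1.77-fold in the first step (log2 change 0.83, SE 0.10, limma adjusted p = 8.75e-07). Within the higher set of spike-in signal the rise was 0.92 and within the lower set 0.74, both called. It fell 1.46-fold in the second step (-0.54, SE 0.12, limma adjusted p = 0.014), where 3.34% of all probe sets changed at least as much. That second call was lost when any 1 of the 5 h arrays was left out, while the change hardly moved. Without 5 h array 1, 2 or 3 the limma adjusted p was 0.0512, 0.0683 and 0.0813, with changes of -0.56, -0.54 and -0.52. Second-step calls over all probe sets then numbered 332, 311 and 304, against 527 with all arrays. At 5 h the level of mamo 145040_at was still 0.28 above that at -18 h (SE 0.12), which did not pass (limma adjusted p = 0.122) except without 0 h array 7 (0.0416).

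The other mamo probe sets moved less. 145041_at averaged 3.72 ± 0.247 log2 in prepupae and 3.40 ± 0.154 in larvae (SD, n = 7 each), a first-step rise of 0.32 (SE 0.10, limma adjusted p = 0.0203) with overlapping groups. It was a dim probe set, above the lower quartile in 11 of 17 arrays. Its call was lost without 0 h array 4 (change 0.27, limma adjusted p = 0.0523) and without larval arrays 1, 4 and 6 (0.27, 0.0949). The call was also lost within the higher set of spike-in signal (0.16, 0.52). 145038_at, which lay above the median of every array, spanned 4.86 to 5.20 log2 in larvae, 4.97 to 5.45 in prepupae and 5.07 to 5.27 in pupae. Its first-step change was 0.18 (interval 0.01 to 0.35, limma adjusted p = 0.126), called only without 0 h array 3 (0.22, 0.0496) among the fits run. Its second-step change was -0.06 and its whole-span change 0.12. 145039_at lay below the lower quartile of every array, between 2.75 and 3.22 log2, with changes of 0.07 in the first step, -0.10 in the second and -0.03 over the whole span, none of them called.

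bol encodes Boule, a DAZ-family RNA-binding protein best known for translational control in the male germ line. Its probe set 143637_at ran from 5.05 to 5.56 log2 at -18 h with a median of 5.31, and from 4.29 to 4.94 at 0 h with a median of 4.62. At 5 h it read 4.82, 4.71 and 4.82. Every larval array lay above every later array, and the 5 h arrays fell inside the range of the 0 h arrays. bol 143637_at fell 1.65-fold in the first step (log2 change -0.72, SE 0.10, limma adjusted p = 7.34e-06). The change was -0.77 within the higher set of spike-in signal and -0.66 within the lower set, both called. At 5 h it was 1.45-fold lower than at -18 h (-0.53, SE 0.13, limma adjusted p = 0.0045), a call lost within the lower set (-0.48, 0.0729). The second step was 0.19 (interval -0.08 to 0.46, adjusted p = 0.582). The other probe set, 151300_at, was below the lower quartile of all 17 arrays, between 2.67 and 3.40 log2, and its changes of -0.16, -0.04 and -0.20 did not pass. The changes of bol, chinmo, Syp and mamo came with the changes in mushroom body, neuroblast and cell cycle, glial and fat body markers given above, and the part of these markers was not tested.

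**Figure D2:**
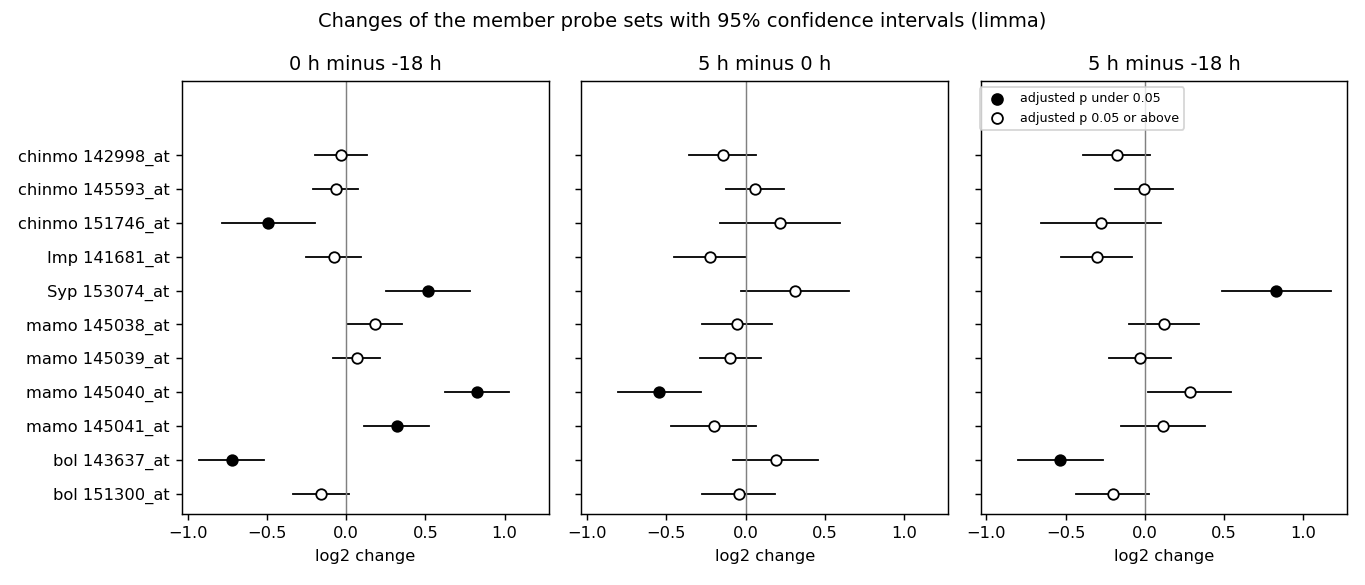
Log2 change of each member probe set (horizontal axis) with its 95% confidence interval from limma, for 0 h minus -18 h, 5 h minus 0 h and 5 h minus -18 h, filled where the adjusted p is under 0.05. There are 5, 1 and 2 filled points in the 3 panels, and those of Syp, mamo 145040_at and bol 143637_at lie farthest from 0.

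Where a gene had several probe sets, the difference between their changes was tested by an exact permutation test over arrays (two-sided), for 10 pairs in 3 contrasts with adjustment over the 30 tests. Of these, 5 passed, all in the first step. The probe set mamo 145040_at rose more than each of the others of its gene, by 0.65 more than 145038_at, 0.76 more than 145039_at and 0.51 more than 145041_at (exact permutation adjusted p = 0.0117 each). Of these partners, only 145038_at lay above the median of every array, with group means of 5.04, 5.22 and 5.17 log2. The part of RMA's compression in these differences was not tested. chinmo 151746_at fell by 0.43 more than 145593_at, and bol 143637_at by 0.56 more than 151300_at (exact permutation adjusted p = 0.049 each), and both partners were below the lower quartile of every array. Over 19 alternatives those adjusted values ran from 0.0245 to 0.0833 for chinmo and from 0.0175 to 0.0833 for bol. The first-step change of chinmo 151746_at minus that of 142998_at was -0.46, which did not pass (exact permutation adjusted p = 0.117). With 3 arrays at 5 h the smallest p possible was 0.0167 before adjustment, and 0 of the 20 tests with that group passed by the exact permutation test, with 4 at an unadjusted p under 0.05. With larval arrays 1, 4 and 6 left out for their salivary gland or muscle transcripts, 0 tests passed, with 9 at an unadjusted p under 0.05. The 4 larval arrays left allow no p below 0.00606. The mamo differences were then 0.62, 0.81 and 0.54 against 145038_at, 145039_at and 145041_at. Probe sets of 1 gene can lie at different distances from its 3-prime end. In the eIF4a control transcript the 3-prime probe set exceeded the middle one at every time. The excess was 3.03 ± 0.0845, 2.81 ± 0.202 and 2.58 ± 0.0121 log2 along the time course (SD, n = 7, 7 and 3). For the actin control it was 3.37 ± 0.330, 3.08 ± 0.366 and 2.76 ± 0.107 (SD, same arrays). The part of these shifts in the differences between probe sets, and in the changes of single probe sets in any contrast, was not tested.

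**Figure D3:**
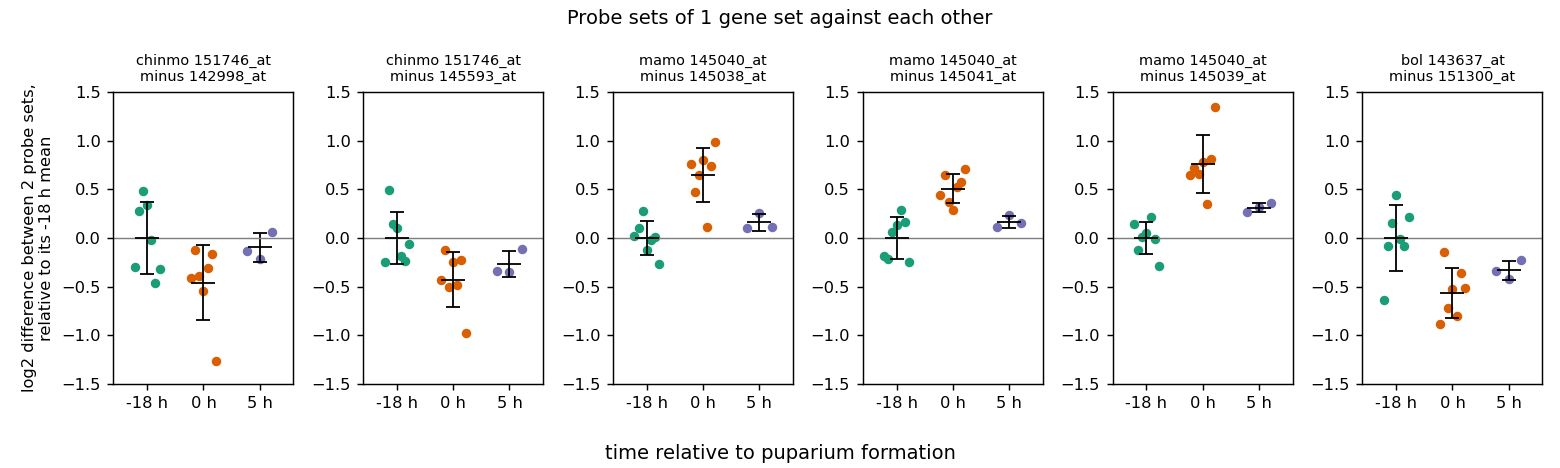
Per-array log2 difference between 2 probe sets of 1 gene, set to 0 at its -18 h mean (vertical axis), against time, with group means and SD. For mamo 145040_at all of the 0 h points lie above 0 against each other probe set, and for chinmo 151746_at and bol 143637_at all of them lie below 0.

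The probe sets of other genes with the closest profiles were found by the root mean square difference over the 17 arrays after centring, among 7485 probe sets with a proper symbol. Closest to mamo 145040_at was Prosbeta2, a core proteasome subunit gene, at 0.16 log2, where the mamo profile itself varied by 0.41 about its mean. Prosbeta2 rose by 0.67 in the first step and fell by 0.43 in the second (limma adjusted p = 1.85e-07 and 0.00793). Next came Tmem131 at 0.18 and und, which encodes a methionine aminopeptidase, at 0.19. Closest to bol 143637_at were RpL17, a ribosomal protein gene, at 0.15, and dj-1beta and Polr1H, an RNA polymerase I subunit gene, at 0.16 each, where bol varied by 0.38. RpL17 fell by 0.63 and dj-1beta by 0.70 at 0 h. Closest to Syp were bin3 at 0.19, Gos28, a Golgi SNARE gene, at 0.20 and ogre, an innexin gene, at 0.20, where Syp varied by 0.40. bin3 rose with Syp at 0 h (0.54) and over the whole span (0.94, limma adjusted p = 5.74e-05). Closest to chinmo 151746_at were NK7.1 at 0.21, OXA1L at 0.22 and g (garnet) at 0.22, where chinmo varied by 0.35, so these profiles were less close. Imp, which varied by only 0.17, was closest to ctrip at 0.10, Hph at 0.11 and cnk at 0.12, and none of these 3 passed in any contrast.

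**Figure D4:**
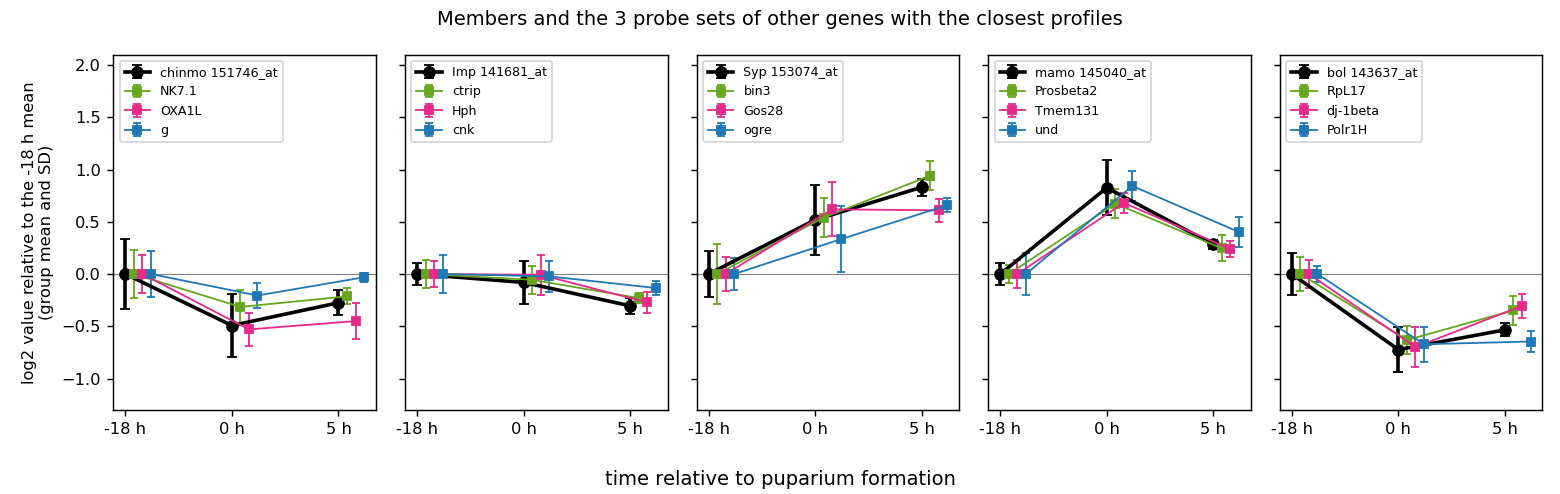
Group means and SD over arrays, relative to the -18 h mean (vertical axis, log2), of the brightest probe set of each measured member (black) and of the 3 closest probe sets of other genes (colours), against time. The black and coloured lines peak at 0 h for mamo, are lower at 0 h for bol and are higher at 0 h and 5 h for Syp.

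Other genes of the same pathways were read by the brightest probe set of each. Of all probe sets, given here for this list and those below, 13.6% rose and 11.9% fell in the first step. In the second 2.36% rose and 1.42% fell, and over the whole span 11.0% and 9.06%. Of 26 measured genes of neuronal and neuroblast temporal identity, 3 rose and 5 fell in the first step, 1 rose and 4 fell in the second, and 2 rose and 5 fell over the whole span. Those with the smallest F-test p were Sox14, br, brat and Hr4. Sox14, an ecdysone-induced transcription factor gene, and Hr4, a nuclear receptor gene, rose in the first step and fell in the second, as mamo 145040_at did, with second steps of -2.29 for Sox14 (limma adjusted p = 3.33e-07) and -0.79 for Hr4 (0.00216). The second Hr4 probe set, a dim one, changed by 0.00 at 0 h. The brat gene, whose product represses translation in neuroblast daughters, rose 3.63-fold at 0 h (limma adjusted p = 2.35e-08).

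Among 13 measured genes of BTB transcription factors other than chinmo and mamo, 1 rose and 3 fell in the first step, 0 rose and 1 fell in the second, and 1 rose and 2 fell over the whole span. The brightest br (broad) probe set fell at each step, by 1.15 in the first and by 0.92 in the second (limma adjusted p = 3.55e-06 and 0.00718), whereas 0.09 and -0.10 were the first-step changes of the other br probe sets. mod(mdg4), a chromatin factor gene, rose by 0.90 at 0 h in its brightest probe set, and its other 3 probe sets changed by -0.09, 0.07 and -0.15, none passing. BtbVII fell by 0.50 and bab1 by 0.23 at 0 h (limma adjusted p = 0.000741 and 0.0346). Their other probe sets changed by -0.18 and -0.02 and did not pass.

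Of 38 measured genes listed as RNA-binding regulators of translation and mRNA fate, 9 rose and 5 fell in the first step. In the second 0 rose and 1 fell, and over the whole span 6 rose and 4 fell. The list also holds twe, a phosphatase gene, which was not called in any contrast. The list's median change at 0 h was -0.02, as was that of all probe sets. Besides brat, the smallest F-test p were those of Rox8, glo and qkr58E-1. Rox8, related to the vertebrate TIA proteins, rose 2.57-fold at 0 h, glo, an hnRNP F/H family gene, 2.04-fold, and qkr58E-1, a KH-domain gene, fell 1.62-fold. The second-step call was that of glo, which fell by 0.57 (limma adjusted p = 0.00914). The first-step changes of Syp and bol were 0.52 and -0.72. Those of brat, Rox8 and glo were larger in size, and that of qkr58E-1 was -0.70. These list genes were picked by their F-test p in the same data, so this does not place Syp and bol within the list.

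**Figure D5:**
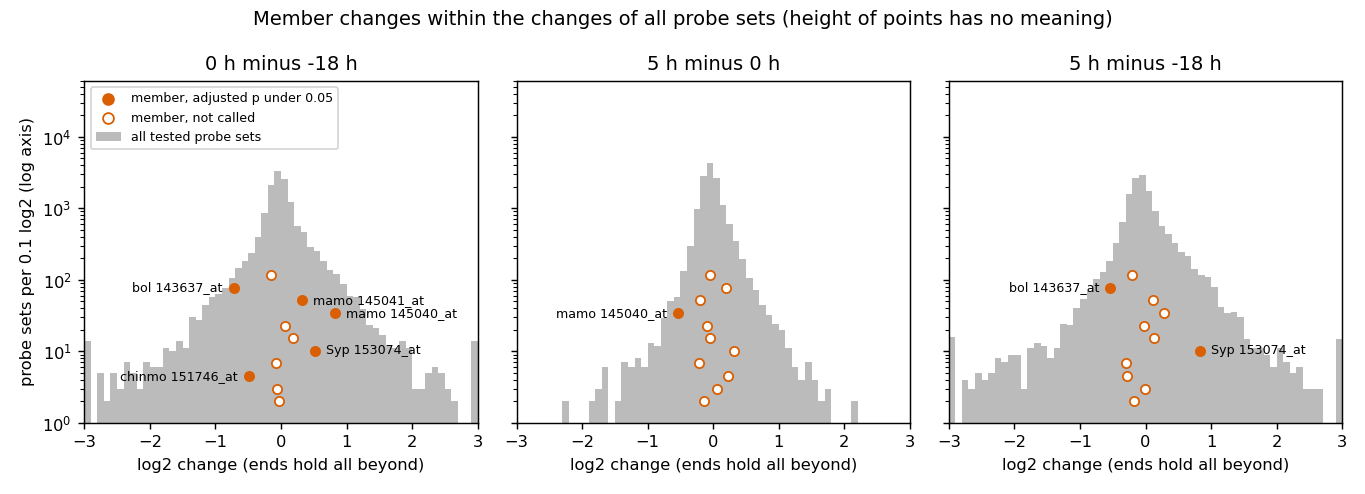
Number of probe sets per 0.1 log2 of change (grey bars, log axis) for the 3 contrasts, with the 11 member probe sets as points at their own change (filled where called), at heights that carry no meaning. The farthest members are mamo 145040_at in the first 2 panels and Syp in the last.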

How the data were processed

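The authors deposited 1 log2 value per probe set for each of the 17 arrays. Per the submitters' processing notes these log2 values came from RMA in Affymetrix Expression Console. Its version, and whether all arrays were normalised together, were not stated in the sources used here. RMA compresses changes of dim probe sets. Symbols came from the array's annotation, updated through RefSeq gene IDs. Of 13966 probe sets, 12443 had 1 symbol, 327 several and 1196 none, and 12394 of the first kind matched the RefSeq table. The 44 control probe sets were left out. No sequences or coordinates were used here.

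Groups came from the sample titles. A model with 3 group means was fitted to all arrays with limma 3.58.1 (lmFit, eBayes) in R 4.3.3. The p-values of 2-sided tests were adjusted with the Benjamini-Hochberg method across the 13966 probe sets, with a threshold of 0.05. SE is that of the fitted contrast. Exact permutation tests were run with scipy 1.17.1. The fits were tested on simulated data. The number of arrays limits the precision. Alternatives were other normalisations, variance models and filters, blocks, subsets and leaving out each array, and the closing section gives their effect. The members, gene lists and alternatives were chosen with earlier results of these data known. Every member probe set is named, with the 3 closest probe sets per gene and the 4 genes of smallest F-test p per pathway list. The marker genes named and the controls eIF4a and actin were named after their values were seen. Deviations of same-numbered arrays from their group means correlated at -0.281 to 0.367, with no common sign, and the numbers were not taken as pairs. The highest value was that of larval and 0 h array 7.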

Additional observations from a re-analysis of the deposited data

Results flagged for a closer look

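In 22 sets of 7 arrays (11 probe sets at -18 h and at 0 h), 2 held an array far from the others by Dixon's test, where chance flags about 1 in 20. chinmo 151746_at read 3.09 log2 in 0 h array 7, against 3.75 to 3.97 in the other 0 h arrays. The same array had the lowest neuroblast and cell cycle mean at 0 h (4.41) and the highest mamo 145040_at value (6.52). bol 151300_at, a dim probe set, read 3.40 log2 in larval array 1, against 2.74 to 3.01 in the other larval arrays.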

How the results depend on the processing

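The first-step calls (0 h against -18 h) of mamo 145040_at and bol 143637_at, and the whole-span call (5 h against -18 h) of Syp, were kept in all alternatives that gave them. Over 33 changes of single probe sets, 818 alternative values were computed, of which 776 kept direction and side of the threshold, 10 lost and 10 gained a call and 22 turned sign. The turns touched only changes that had not passed. Of the 5 members called in the first step, 3 were called in the higher spike-in set alone, and 3 with dim probe sets dropped, where chinmo 151746_at and mamo 145041_at were not tested. Over all probe sets, first-step calls numbered 3568 with all arrays, 2244 in the higher set alone and 3208 with dim ones dropped. Of the 2 called over the whole span, 1 was called in the lower spike-in set alone, where all probe sets gave 2037 calls against 2799 with all arrays. Leaving out 1 array gave 4 to 6 called members in the first step, 0 to 1 in the second (0 without any one 5 h array), 2 to 3 over the whole span, 3 to 5 by the F test, and 3 to 5 of the 30 probe-set comparisons. Calls over all probe sets then ranged from 3270 to 3953 in the first step and from 1938 to 3274 over the whole span. Without 5 h array 1, 2 or 3, second-step calls over all probe sets numbered 332, 311 and 304, against 527 with all arrays. With larval arrays 1, 4 and 6 left out for their salivary gland or muscle transcripts, 0 of the 30 passed. Of these, 9 had an unadjusted p under 0.05. The 4 larval arrays left allow no first-step p below 0.00606, which limits what can pass after adjustment. The first-step differences were then 0.62, 0.81 and 0.54 for mamo 145040_at against 145038_at, 145039_at and 145041_at. With all arrays these were 0.65, 0.76 and 0.51. For chinmo 151746_at minus 145593_at it was -0.53 against -0.43, and for bol 143637_at minus 151300_at -0.64 against -0.56. The cause of the lost calls was not tested. The replicate block left 0 called members in the second step, where mamo 145040_at had a change of -0.51 (limma adjusted p = 0.102), it gave 5 in the first step and 3 over the whole span, where Imp was then called (-0.42, 0.017), and it put mamo 145038_at at 0.0374 in the second step. With that block, calls over all probe sets numbered 3623 in the first step, 399 in the second and 2682 over the whole span. In the lower spike-in set alone, the first-step changes of chinmo 142998_at (0.0558), Imp (0.0093) and bol 151300_at (0.0191), the second-step change of mamo 145038_at (0.0096), and the whole-span changes of chinmo 145593_at (0.0150) and mamo 145039_at (0.0074) were above 0. The whole-span changes of chinmo 145593_at and mamo 145039_at also turned with quantile normalisation (0.0829 and 0.0610) and with centring on array medians (0.0404 and 0.0169). The spike-in set block turned the whole-span change of chinmo 145593_at (0.0089) and the second-step change of bol 151300_at (0.0177), which quantile normalisation turned as well (0.0025). Leaving out 1 array gave ranges of -0.0704 to 0.0105 for chinmo 142998_at in the first step, and of -0.0382 to 0.0133 for chinmo 145593_at and -0.0750 to 0.0137 for mamo 145039_at over the whole span. The cause of these turns was not tested.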
